A study of Mus musculus with 10 samples.

Results

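The 40 genes described here encode the cyclins, kinases, motors and kinetochore proteins that carry a cell through mitosis. They were chosen by name from a list of mitotic cyclins, kinases, kinesins and kinetochore genes. All 40 were found among the 52636 genes of the count table, and all 40 passed the filter on low counts. The cells were mouse leukaemic progenitors of a model named DIN, sorted as cKit-positive and Cd11b-negative from marrow and spleen. All groups carried the same 3 MSCV vectors, with DNMT3A R882H (TRI vector, dsRed), IDH2 R140Q (MIG vector, GFP) and NRAS G12D (MIT vector, TTA), placed together in fetal liver cells and grown in sub-lethally irradiated Ptprca recipients. Frozen cells of moribund mice were then given to new Ptprca recipients, which received doxycycline or normal chow and water. Doxycycline turned the DNMT3A R882H vector off, while IDH2 R140Q and NRAS G12D were not described as regulated.

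The groups were day 14 off (doxycycline, 4 libraries), day 14 on (untreated, 2 libraries), day 5 off (doxycycline, 2 libraries) and day 5 on (untreated, 2 libraries). The labels give neither the ages of the mice nor which library came from marrow or spleen, and they do not say that each library was a separate mouse. Every p-value therefore measures the spread between these libraries, which may be technical. The gate named in the labels holds no donor or reporter marker, and no group received doxycycline without the regulated vector. An effect of doxycycline itself and one of the vector cannot be told apart. In these bulk samples, fewer dividing cells and less mitotic RNA per dividing cell cannot be told apart either.

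Entry into mitosis is driven by CDK1 bound to cyclin A2, B1 or B2, with CDC25 phosphatases, PLK1 and Aurora A in support. The spindle is then built by kinesins and microtubule-binding proteins, chromosomes attach through kinetochores, and the spindle checkpoint holds back the anaphase-promoting complex until attachment is complete. Most of these genes are transcribed late in the cell cycle. In resting cells MuvB complexes repress many of them through a promoter element called CHR, and in dividing cells B-MYB and FOXM1 join MuvB to activate them, often beside CCAAT boxes bound by NF-Y.

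Most of the genes with a promoter sequence at hand held these letters. Promoter sequences, 250 bases before and 50 bases after the annotated start, were taken from RefSeq (GRCm38.p6) and matched 33 of the 40 genes by symbol. Both strands were searched for the CHR letters TTTGAA, for its variant TTTAAA and for CCAAT. The CHR letters stood in the promoters of 25 of the 33 genes, against 20.2% of all 27025 genes in the table. CCAAT stood in 25 of 33, against 41.1%, and both together stood in 22 of 33, against 7.97%. The variant stood in 9 of 33, against 14.9%. In 23 of the 33 genes a CHR match began between 30 bases before and 45 bases after the start, a window chosen after the positions were seen, against 4.45% of all genes. The match is a description of letters and does not show that a factor was bound.

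Below, the first 3 mitotic entry genes with the CHR letters are shown beside the 2 genes of the whole list that changed least at day 14. Capitals mark the CHR letters, their variant and CCAAT boxes on either strand, read 5′ to 3′ along the gene. The Cdk1 promoter is chr10:69352863-69353162, minus strand, and has CHR letters beginning 15 bases before the start. The Ccnb2 promoter is chr9:70421505-70421804, minus strand, the Ccnf promoter chr17:24251360-24251659, minus strand. The Pttg1 promoter is chr11:43425932-43426231, minus strand, and the Kif23 promoter chr9:61946750-61947049, minus strand.
Cdk1: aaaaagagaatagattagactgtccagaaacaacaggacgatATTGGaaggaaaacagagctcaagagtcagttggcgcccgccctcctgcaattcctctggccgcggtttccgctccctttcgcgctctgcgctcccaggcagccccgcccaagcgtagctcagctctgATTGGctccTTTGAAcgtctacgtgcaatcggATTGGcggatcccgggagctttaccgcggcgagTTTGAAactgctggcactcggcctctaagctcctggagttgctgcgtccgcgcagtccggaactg
Ccnb2: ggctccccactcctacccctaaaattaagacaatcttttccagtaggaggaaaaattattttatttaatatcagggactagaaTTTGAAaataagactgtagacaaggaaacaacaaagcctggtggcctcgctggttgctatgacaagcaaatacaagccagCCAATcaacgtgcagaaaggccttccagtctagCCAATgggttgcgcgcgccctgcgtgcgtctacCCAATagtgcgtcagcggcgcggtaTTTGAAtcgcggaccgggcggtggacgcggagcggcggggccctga
Ccnf: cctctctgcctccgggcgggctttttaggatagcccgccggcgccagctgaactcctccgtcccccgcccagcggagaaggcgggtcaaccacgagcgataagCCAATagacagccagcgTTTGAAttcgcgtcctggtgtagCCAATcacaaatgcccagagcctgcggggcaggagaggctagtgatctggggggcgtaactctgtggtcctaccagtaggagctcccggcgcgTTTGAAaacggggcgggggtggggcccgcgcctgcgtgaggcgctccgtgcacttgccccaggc
Pttg1: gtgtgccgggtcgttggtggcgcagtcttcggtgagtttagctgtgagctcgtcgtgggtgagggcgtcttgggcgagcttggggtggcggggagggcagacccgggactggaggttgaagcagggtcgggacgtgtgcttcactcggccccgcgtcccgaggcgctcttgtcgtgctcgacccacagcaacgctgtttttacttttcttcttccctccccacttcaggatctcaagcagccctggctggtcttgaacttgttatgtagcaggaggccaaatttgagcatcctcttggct
Kif23: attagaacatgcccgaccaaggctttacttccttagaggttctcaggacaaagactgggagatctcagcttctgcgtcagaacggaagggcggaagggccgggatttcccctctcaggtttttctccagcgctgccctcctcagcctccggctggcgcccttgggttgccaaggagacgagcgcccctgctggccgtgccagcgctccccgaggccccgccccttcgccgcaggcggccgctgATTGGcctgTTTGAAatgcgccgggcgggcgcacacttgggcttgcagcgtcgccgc
The Kif23 window holds the CHR letters and a CCAAT box side by side at the start. The Pttg1 window holds none of the 3 motifs. It lies inside the Pttg1 gene as GENCODE M21 draws it (chromosome 11, 43420250 to 43426251), so the bases before that farther start were not searched.

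**Figure D1:**
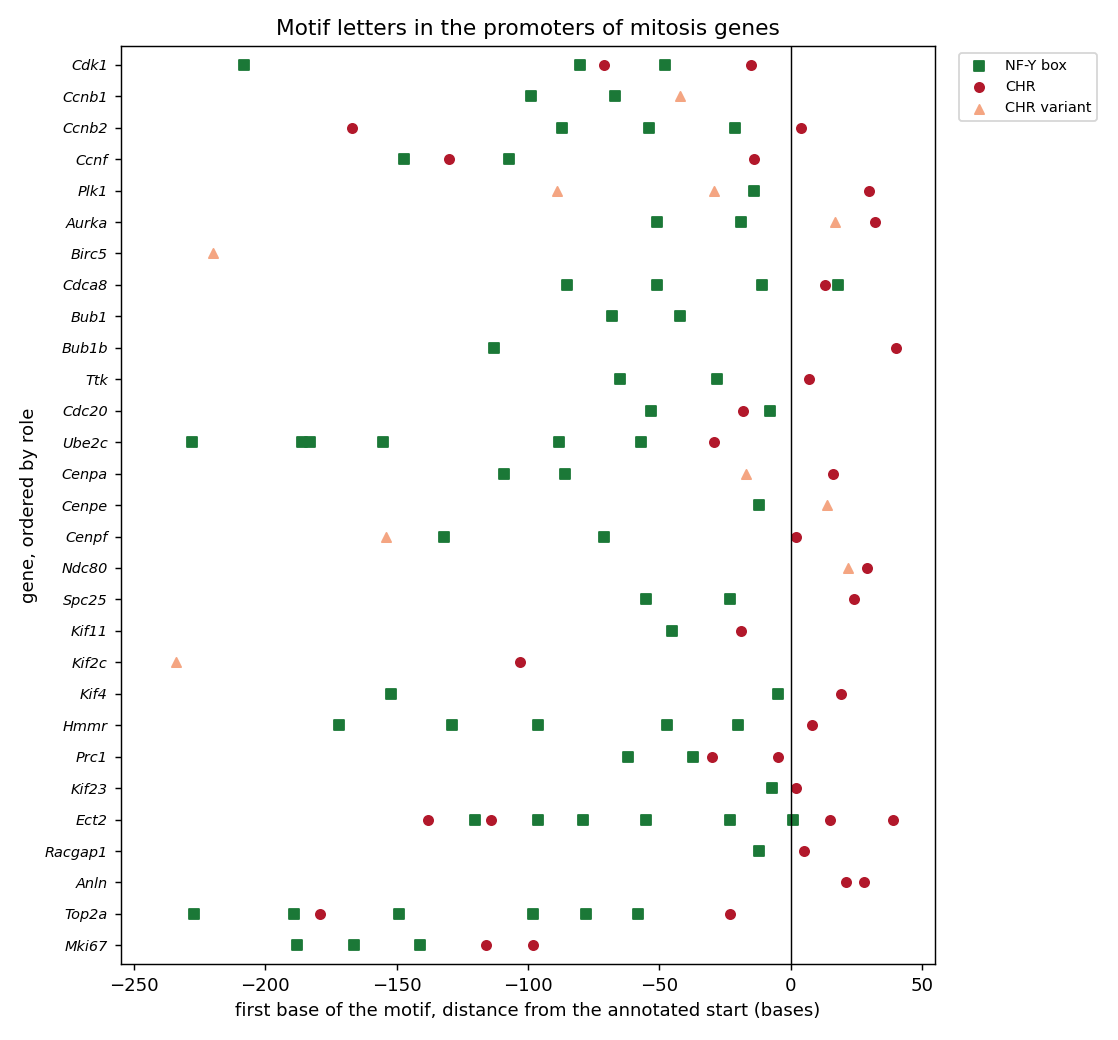
Positions of the CHR letters (circles), the CHR variant (triangles) and the NF-Y box CCAAT (squares) on either strand, as distance in bases of the motif's first base from the annotated start (0), for each gene with a match; Prc1 and Ect2 have more than 1 annotated start and are drawn for each. In 23 of 33 genes a CHR match lies near the start, with NF-Y boxes mostly before it.

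Depth was 9292644 to 14340624 counts a library, and 3 counts corresponded to 0.209 CPM in the deepest and 0.323 CPM in the shallowest library. Levels are CPM, counts relative to library size after TMM scaling. Each 3′ read marks a transcript end, so no length correction was made and levels were not compared between genes. Kit, the sort marker, stood at 30.9 to 36.4 CPM at day 14 off and at 88.9 and 98.1 CPM at day 14 on, and at 40.3 and 43.3 CPM at day 5 off against 51.3 and 56.2 CPM at day 5 on. Itgam, which encodes Cd11b, stood at 2.07 to 3.73 CPM at day 14 off and 8.76 and 21.9 CPM at day 14 on, and at 3.17 and 14.6 CPM at day 5 off against 3.08 and 6.74 CPM at day 5 on. Dnmt3a was 31.9 to 39.3 CPM at day 14 off and 55.9 and 73.6 CPM at day 14 on. At day 5 it was 65.58 and 50.15 CPM off against 52.83 and 51.21 CPM on. Reads of the vector may lie outside the mouse Dnmt3a gene, and these values therefore say nothing on whether the vector was off.

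The first comparison asks how the mitotic genes stood after 14 days with R882H off. They were broadly higher off than on: edgeR called 37 of 40 higher and 0 lower, and the median log2 change was 1.26 (median of all tested genes 0.01). Over all 15916 tested genes 16.9% were called higher and 14.9% lower. At an unadjusted p below 0.05 the counts were 38 higher and 0 lower, against 6745 of the 15916 tested genes in either direction. Both DESeq2 and limma voom called 37 higher and 0 lower. In 38 of 40 genes the lowest off library lay above the highest on library, as it did in 27.9% of all tested genes. Summed over the 40 genes, the level was 3506 to 4071 CPM at day 14 off and 1452 and 1622 CPM at day 14 on. The day 5 sums lay between, at 2636 and 2666 CPM off and 1961 and 2519 CPM on.

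**Figure D2:**
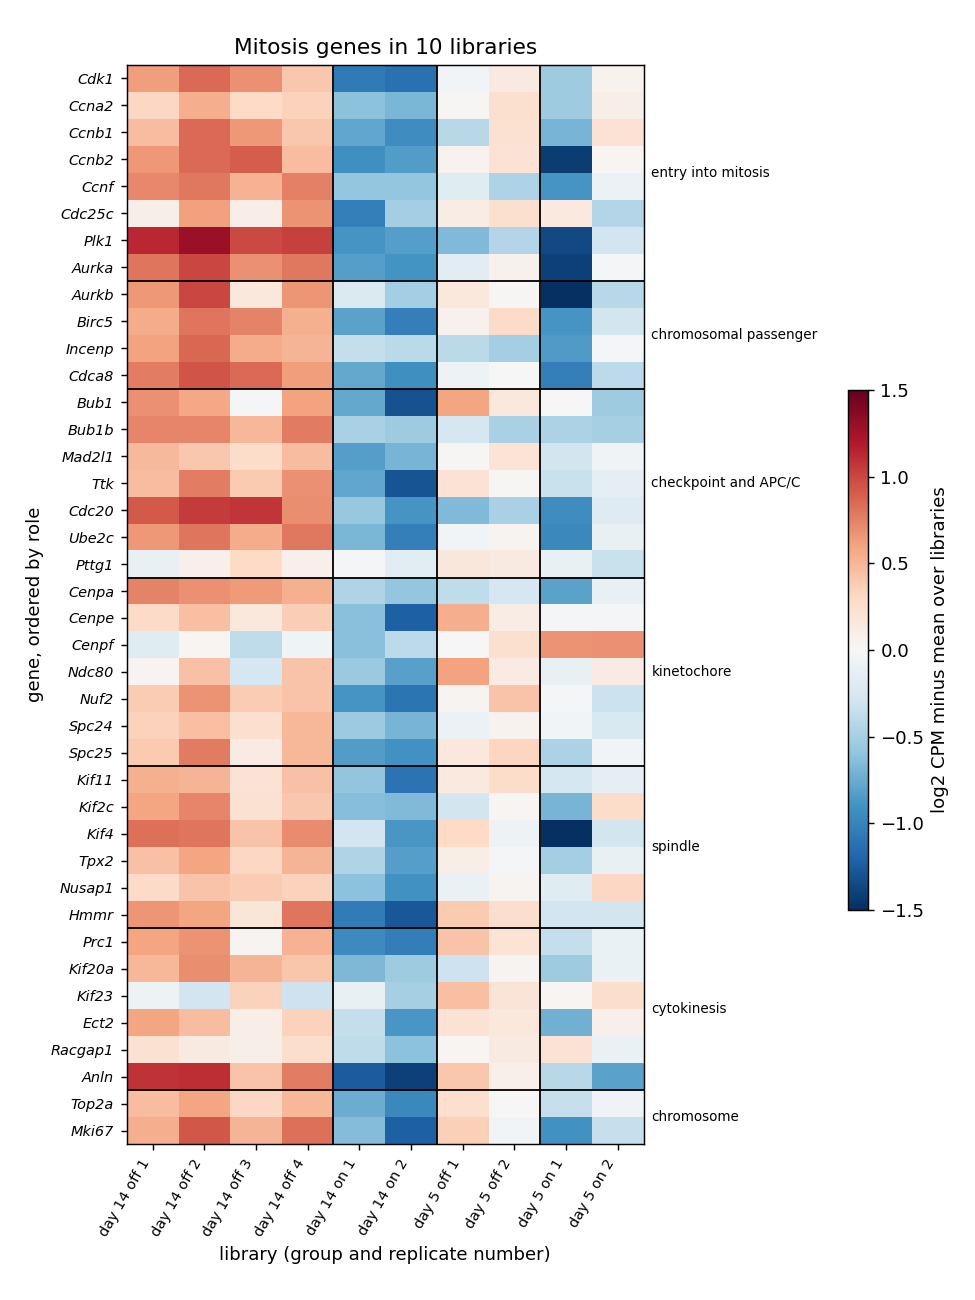
Log2 CPM of each gene (rows, by role) in each of the 10 libraries (columns, by group and replicate number) minus that gene's mean over libraries; the colour scale ends at 1.5 in each direction. The 4 day 14 off libraries are above and the 2 day 14 on libraries below the mean in nearly every row, and day 5 on replicate 1 is low in many rows of the entry and passenger groups.

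All 8 genes of mitotic entry rose at day 14 (median 1.53, range 1.02 to 1.97). Cdk1, the kinase that starts mitosis (ENSMUSG00000019942, chromosome 10, 69335146 to 69352938, mm10), had 206, 241, 215 and 176 CPM at day 14 off, against 64.2 and 61.1 CPM at day 14 on. The groups did not overlap, and every off library was over 2-fold higher than either on library. The log2 change was 1.74 ± 0.19 (SE, edgeR adjusted p = 1.31e-04). Plk1, the polo kinase of entry and spindle assembly (ENSMUSG00000030867, chromosome 7, 122159439 to 122169873), had 231, 258, 209 and 214 CPM at day 14 off, against 57.2 and 59.3 CPM at day 14 on. Its groups stood apart by more than those of any other entry gene, with a log2 change of 1.97 ± 0.26 (edgeR adjusted p = 3.55e-04). Among the mitotic cyclins, Ccnb2 rose by 1.61 ± 0.33, Ccnb1 by 1.46 ± 0.27 and Ccna2 by 1.02 ± 0.18. Aurka, the centrosomal Aurora kinase, rose by 1.68 ± 0.31 and Ccnf, the cyclin of an SCF ubiquitin ligase, by 1.28 ± 0.23. Cdc25c, a phosphatase that activates CDK1, had low counts, with 3.13 to 4.71 CPM off and 1.45 and 2.08 CPM on. Its change of 1.13 ± 0.34 passed the test, and lost the call without any of 4 libraries: day 14 off replicate 2 or 4, or day 14 on replicate 1 or 2 (edgeR adjusted p 0.0597 to 0.203).

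The 4 subunits of the chromosomal passenger complex, which corrects faulty attachments and later guides cytokinesis, all rose. Birc5, survivin, had 307, 365, 349 and 303 CPM at day 14 off and 120 and 103 CPM at day 14 on. No off library came near the on libraries, and the log2 change was 1.57 ± 0.19. Cdca8, borealin, rose by 1.64 ± 0.18 and Incenp, the scaffold, by 1.02 ± 0.21. Aurkb, the kinase of the complex, rose by 1.0 ± 0.31, with 9.91 to 17.8 CPM off and 7.67 and 6.23 CPM on. The Aurkb call was lost without any of 5 libraries: day 14 off replicate 1, 2 or 4, or either day 14 on library (edgeR adjusted p 0.0657 to 0.168).

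Of the 7 genes of the spindle checkpoint and of anaphase, 6 rose (median of the 7, 1.51). Ube2c, the ubiquitin-conjugating enzyme of the anaphase-promoting complex, had 118, 132, 111 and 131 CPM at day 14 off and 46.9 and 37.1 CPM at day 14 on. Cdc20, the activator of that complex which the checkpoint restrains, had 62.7, 68.6, 69.4 and 53.9 CPM at day 14 off and 22.3 and 17.9 CPM at day 14 on. Neither gene overlapped between the groups, and the log2 changes were 1.55 ± 0.22 for Ube2c and 1.67 ± 0.22 for Cdc20. The checkpoint kinases Ttk and Bub1 rose by 1.60 ± 0.19 and 1.51 ± 0.29, and the checkpoint proteins Bub1b and Mad2l1 by 1.20 ± 0.14 and 1.17 ± 0.16. Pttg1, securin, which keeps separase inactive until anaphase, was the exception of this group and had the smallest change of the 40 genes. It had 32.1, 36.5, 42.9 and 36.6 CPM at day 14 off and 34.1 and 31.0 CPM at day 14 on. Its groups overlapped, and the log2 change was 0.19 ± 0.15 (edgeR adjusted p = 0.369).

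Among the 7 kinetochore and centromere genes, 6 rose (median of the 7, 1.17). Nuf2, Ndc80, Spc25 and Spc24 form the NDC80 complex, which grips microtubule ends, and changed by 1.46 ± 0.20, 0.87 ± 0.25, 1.34 ± 0.21 and 1.01 ± 0.13. Of these, Ndc80 lost its call without any of 4 libraries: day 14 off replicate 2 or 4, or either day 14 on library (edgeR adjusted p 0.0611 to 0.142). Cenpa, the centromeric histone H3 variant, rose by 1.17 ± 0.18 and Cenpe, a kinetochore kinesin, by 1.21 ± 0.19. Cenpf, a large protein of the outer kinetochore, had 160, 187, 140 and 175 CPM at day 14 off and 118 and 139 CPM at day 14 on. Its off libraries lay just above its on libraries, with a log2 change of 0.37 ± 0.15 that did not pass (edgeR adjusted p = 0.0780). Cenpf passed without day 14 off replicate 3, the lowest of its off libraries (log2 change 0.42, edgeR adjusted p = 0.0466).

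All 6 spindle genes rose (range 1.09 to 1.74). Nusap1, which bundles spindle microtubules, had 123, 135, 130 and 127 CPM at day 14 off and 65.5 and 53.3 CPM at day 14 on. The off libraries agreed closely with each other, and the log2 change was 1.12 ± 0.16. Hmmr, a spindle pole protein, rose by 1.74 ± 0.20, Kif11, the kinesin that pushes the poles apart, by 1.26 ± 0.17, and Tpx2, which activates Aurora A, by 1.09 ± 0.17. Kif4, a chromosome-bound kinesin, rose by 1.25 ± 0.33 and Kif2c, a microtubule depolymerase, by 1.15 ± 0.28. Kif2c lost its call without either day 14 on library (edgeR adjusted p 0.0688 and 0.0609), and Kif4 without day 14 on replicate 2 (0.119).

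Of the 6 cytokinesis genes 5 rose, and the range, 0.24 to 2.19, was the widest of the role groups. Anln, anillin, a scaffold of the contractile ring, had 17.8, 18.0, 11.3 and 14.2 CPM at day 14 off and 3.52 and 3.16 CPM at day 14 on. It had the largest change of the 40 genes, 2.19 ± 0.27, a 4.58-fold higher level (edgeR adjusted p = 2.52e-04). Prc1, which crosslinks the central spindle, rose by 1.47 ± 0.20. Ect2, the exchange factor that activates RhoA, rose by 0.99 ± 0.26, and Racgap1, which recruits it, by 0.67 ± 0.14, and neither was called once day 14 on replicate 2 was left out (edgeR adjusted p = 0.137 and 0.0538). Kif23, the kinesin that pairs with Racgap1 in centralspindlin, had 46.7, 40.5, 62.9 and 39.6 CPM at day 14 off and 45.7 and 35.0 CPM at day 14 on. Its groups overlapped, and the log2 change was 0.24 ± 0.21 (edgeR adjusted p = 0.419). Both partners of centralspindlin thus gave small changes, with Racgap1 called and Kif23 not called, while the difference between them was not tested.

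Kif20a, a kinesin of the central spindle, had 102, 117, 103 and 96.1 CPM at day 14 off and 45.1 and 49.7 CPM at day 14 on. Its exons share 1271 bases with those of Cdc23, a gene on the opposite strand, and the counts of both genes lay within 2% of each other in all 10 libraries. Its log2 change of 1.14 ± 0.17 therefore cannot be assigned to either gene. Ccna2, Cdc25c, Kif4 and Prc1 also share 510 to 911 exon bases with an opposite-strand gene. Their counts were not equal to those of the partner, which does not show how many of their reads came from the shared bases. Gm3550 had 264% of the total counts of Cdc25c, and Pdzd11 had 104% of those of Kif4. Ube2c shares 592 bases with Tnnc2, which had 0.639% of its counts. Cdc20 shares 53 exon bases with Elovl1 on the opposite strand, which had 114% of its counts. Nusap1 shares 172 with Oip5, also opposite, which had 8.27% of its counts. How many reads of Cdc20 and Nusap1 came from the shared bases is not known, and both stay in the count that follows. Without Kif20a, Ccna2, Cdc25c, Kif4 and Prc1, 32 of 35 were called higher at day 14.

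The remaining pair, which acts on chromosomes, rose as well. Top2a, the topoisomerase that untangles sister chromatids, had 537, 588, 482 and 549 CPM at day 14 off and 232 and 200 CPM at day 14 on. Each of the 4 off libraries was over 2-fold higher than either on library, with a log2 change of 1.32 ± 0.15. Mki67, which coats mitotic chromosomes and is a common marker of dividing cells, rose by 1.62 ± 0.23.

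**Figure D3:**
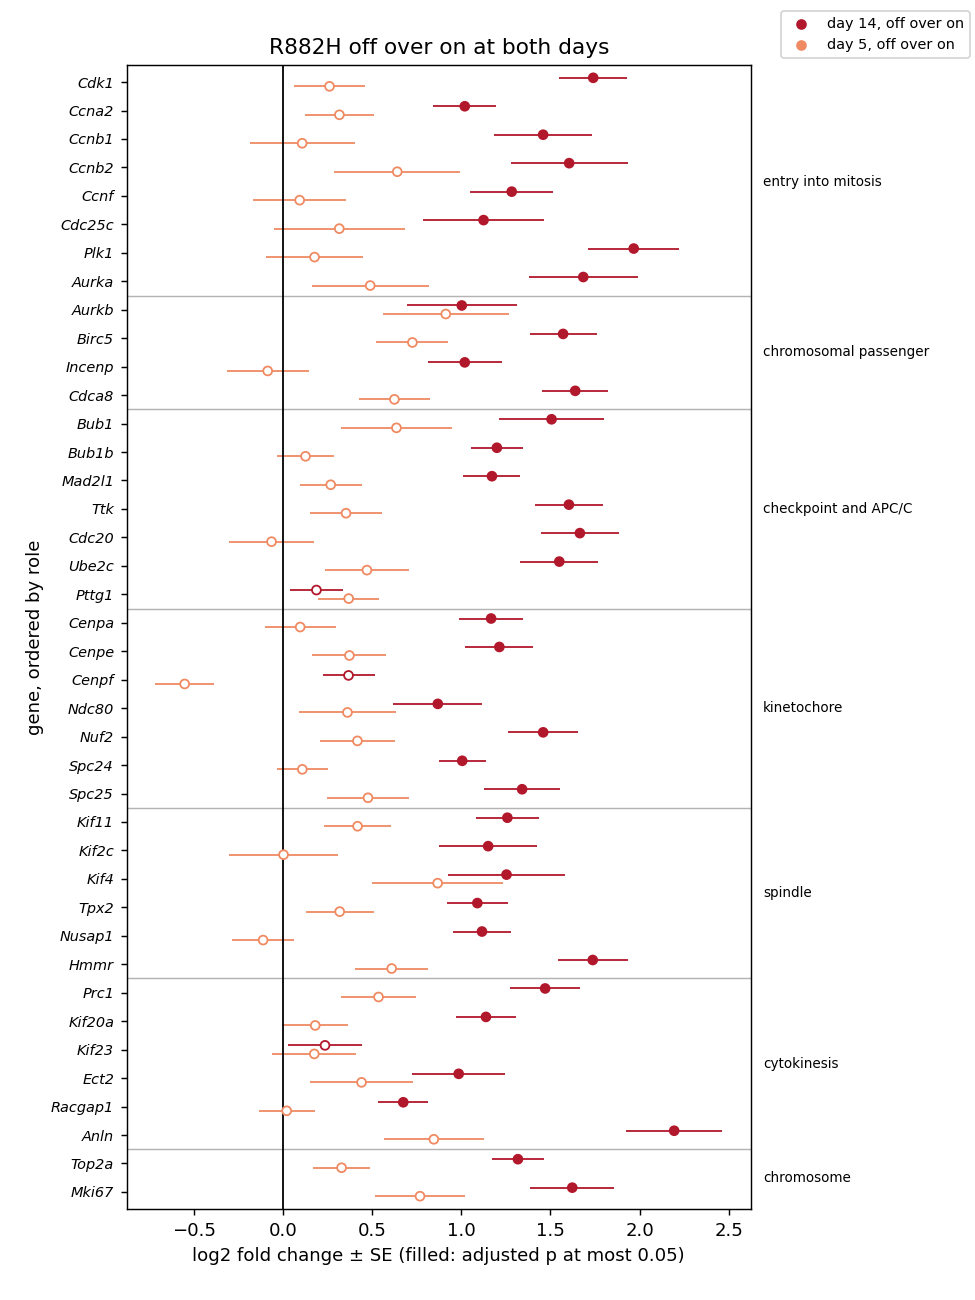
Log2 fold change of off over on with its SE for each of the 40 genes, at day 14 (dark) and day 5 (light); filled points passed an edgeR adjusted p of 0.05. At day 14, 37 genes passed, all to the right of 0, and Pttg1, Cenpf and Kif23 did not; at day 5 no gene passed.

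The day 5 comparison asks whether these differences were present early. None of the 40 genes was called by edgeR, and 77 of the 15916 tested genes (0.484%) were called, 59 (0.371%) higher and 18 (0.113%) lower. At an unadjusted p below 0.05, 9 of the 40 were higher and 1 lower, against 2374 of the 15916 tested genes in either direction. Neither DESeq2 nor limma voom called any of the 40. The changes were above 0 in 36 of 40 genes, with a range of -0.55 to 0.91. Their median was 0.34, against -0.02 for all tested genes. In 21 of 40 genes the 2 off libraries lay above the 2 on libraries, as in 19.3% of all tested genes. Birc5 had 218 and 255 CPM at day 5 off and 113 and 173 CPM at day 5 on (log2 change 0.73 ± 0.20, edgeR adjusted p = 0.148). Plk1 had 66.8 and 78.0 CPM at day 5 off and 41.4 and 86.4 CPM at day 5 on, so the on libraries bracketed the off libraries. Cenpf was the 1 gene of the 40 whose off libraries lay below its on libraries, as in 20.9% of all tested genes. It had 183 and 216 CPM at day 5 off and 291 and 294 CPM at day 5 on (log2 change -0.55 ± 0.17, edgeR adjusted p = 0.174).

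The day 5 on libraries differed from each other in these genes. In 32 of 40 genes replicate 1 was below replicate 2, by a median of 0.44 on the log2 scale, while over all tested genes 49.4% were lower in replicate 1. Among them were Aurka, with 8.32 and 21.4 CPM, and Ccnb2, with 9.33 and 25.5 CPM. At day 5 off replicate 1 was below replicate 2 in 22 of 40 genes. The day 14 on libraries differed in the other direction, with replicate 1 below replicate 2 in 6 of 40 genes. The median of replicate 2 minus replicate 1 was -0.15 there, while 49.9% of all tested genes were lower in replicate 1. The labels give no reason for a difference between the libraries of either on group.

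**Figure D4:**
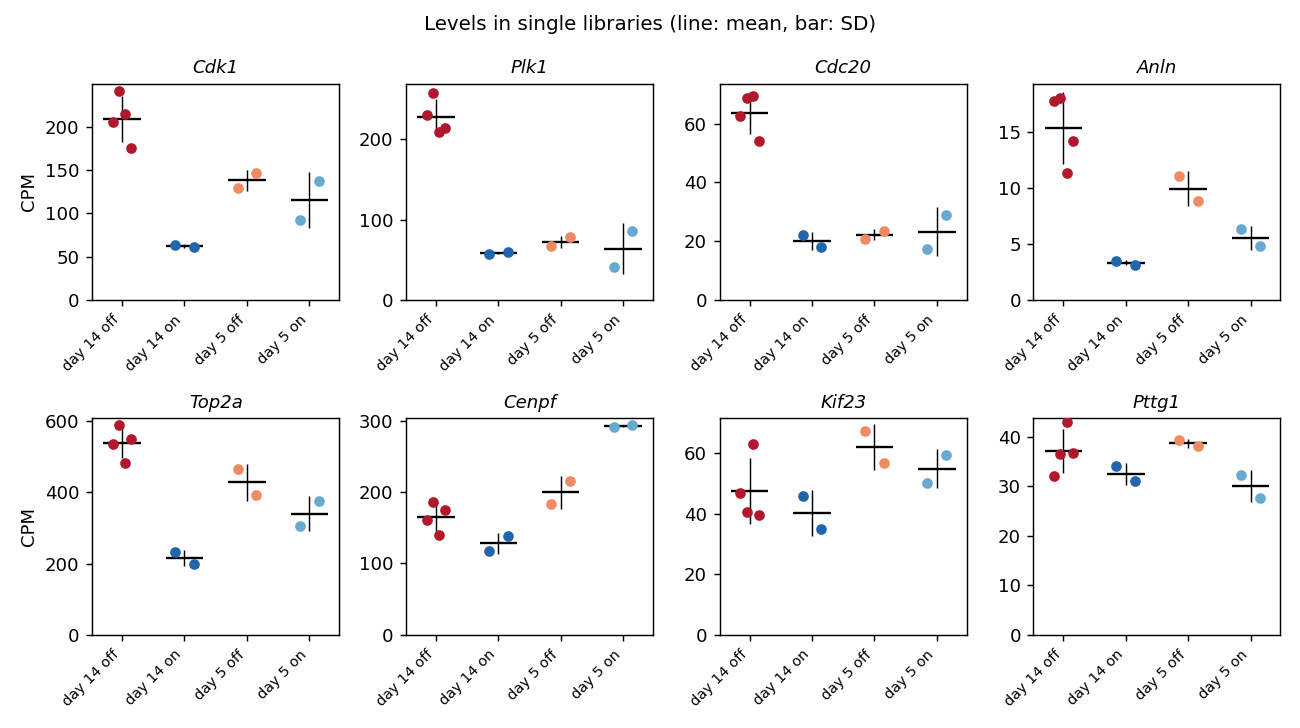
CPM of 8 genes in each library (points), with the group mean (line) and SD (bar), for day 14 off, day 14 on, day 5 off and day 5 on; each axis starts at 0. Cdk1, Plk1, Cdc20, Anln and Top2a are highest at day 14 off, while Kif23 and Pttg1 overlap between the day 14 groups and Cenpf is highest at day 5 on.

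The off-over-on difference was larger at day 14 than at day 5 in 39 of 40 genes. The median difference of log2 changes was 0.95, against 0.03 for all tested genes. The test of that difference called 8 of the 40 higher and 0 lower, against 1.65% and 1.41% of all tested genes, 3.06% in either direction. At an unadjusted p below 0.05 the counts were 31 and 0 of the 40, against 3681 of the 15916 tested genes in either direction. DESeq2 called 20 and 0 of the 40, and limma voom 8 and 0. Cdk1 had the smallest p, with a difference of 1.48 ± 0.27 (edgeR adjusted p = 0.0257), followed by Cdc20 with 1.73 ± 0.32 (0.0261) and Nusap1 with 1.23 ± 0.24 (0.0287). The others were Plk1 at 1.79 ± 0.36, Ttk at 1.25 ± 0.27, Bub1b at 1.07 ± 0.21, Top2a at 0.99 ± 0.21 and Spc24 at 0.90 ± 0.19. Over the fits with 1 library left out, the difference was 1.11 to 2.20 for Plk1 and 0.78 to 1.11 for Top2a. The 8 calls were close to the threshold, and many were lost when 1 library was left out. None was left without day 14 off replicate 1, day 14 on replicate 2 or day 5 off replicate 1, 1 was left without day 14 off replicate 2 or 4 or day 14 on replicate 1, 4 without day 5 off replicate 2, 5 without day 5 on replicate 2, and 20 were called without day 5 on replicate 1. Without further scaling of the total counts, all tested genes split into 124 higher and 224 lower calls, against 262 and 225 with TMM.

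The change of day 14 over day 5 was then taken within each arm, where most single genes did not pass. In 33 of 40 genes the log2 change of day 14 over day 5 was above 0 within the off libraries and below 0 within the on libraries. The share of all tested genes with this pattern was not counted, and their medians were -0.01 within off and 0 within on libraries. Within off libraries the median change was 0.45, and edgeR called 10 of 40 higher and 0 lower (all tested genes 10.1% and 6.94%). At an unadjusted p below 0.05 the counts were 21 and 0 of the 40, against 5141 of the 15916 tested genes in either direction. DESeq2 and limma voom each called 12 and 0. Within on libraries the median was -0.47, and 0 were called higher and 2 lower (all tested genes 0.968% and 1.36%, 2.32% in either direction). Unadjusted, the counts were 0 and 19 of the 40, against 3254 of all tested genes in either direction. DESeq2 called 0 and 11 of the 40, and limma voom 0 and 2. The on-arm counts changed with the scaling, with 1 to 5 of the 40 lower over the other scalings, and total counts gave 117 higher and 73 lower over all tested genes, against 154 and 216 with TMM. For the off arm, upper-quartile scaling gave 1309 higher and 1335 lower over all tested genes, against 1601 and 1105 with TMM. These comparisons use the same libraries as those of off against on and are not independent of them.

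The rise in the off arm was led by Plk1 and Cdc20. Plk1 was 228 ± 22.0 CPM at day 14 off (SD, n = 4) and 72.4 ± 7.90 CPM at day 5 off (SD, n = 2), and its change was 1.65 ± 0.25 (edgeR adjusted p = 0.00285). Cdc20 was 63.6 ± 7.14 CPM at day 14 off (SD, n = 4) and 22.3 ± 1.90 CPM at day 5 off (SD, n = 2), and its change was 1.51 ± 0.22 (edgeR adjusted p = 0.00219). In the on arm both had changes of small size, -0.14 ± 0.27 for Plk1 and -0.22 ± 0.24 for Cdc20. The other 8 called within the off arm were Incenp, Bub1b, Ccnf, Cenpa, Cdca8, Ube2c, Kif20a and Cdk1, with changes of 0.60 to 1.10. Without day 5 off replicate 1 the count was 3, without day 5 off replicate 2 it was 5, and without either day 5 on library it was 15. Plk1, Bub1b and Cdc20 kept their calls without each of the 10 libraries in turn.

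Cenpf and Nusap1 were the calls of the on arm. Cenpf was 128 ± 14.8 CPM at day 14 on and 292 ± 1.78 CPM at day 5 on (SD, n = 2 each), a change of -1.19 ± 0.17 (edgeR adjusted p = 0.0141), and the off arm changed by -0.27 ± 0.14 (0.216). Nusap1 was 59.4 ± 8.63 CPM at day 14 on and 106 ± 25.7 CPM at day 5 on (SD, n = 2 each), a change of -0.84 ± 0.18 (edgeR adjusted p = 0.0412). Cenpf lost its call without either day 14 on library (edgeR adjusted p = 0.162 and 0.0505), and Nusap1 kept its call only without day 5 on replicate 1 (0.0296) among the 10 libraries left out in turn. Cdk1 changed by 0.60 ± 0.18 off, a call lost in 8 of the 10 fits with 1 library left out, while its value on, -0.88 ± 0.20, did not pass (edgeR adjusted p = 0.0510). Prc1, Hmmr and Cenpe had on-arm values of -0.78 ± 0.22, -0.88 ± 0.21 and -0.87 ± 0.20, which did not pass either. In 17 of 40 genes the change was larger in size within the off arm and in 23 within the on arm, a split not counted over all tested genes.

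**Figure D5:**
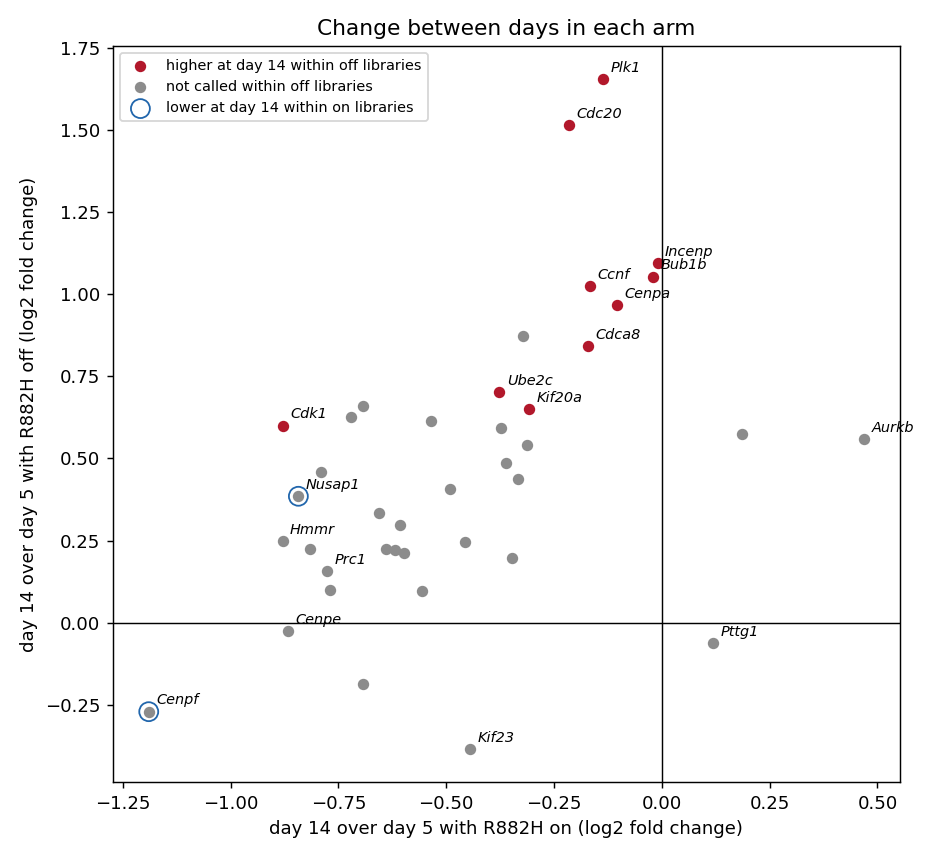
Log2 fold change of day 14 over day 5 within off libraries (vertical) against the same within on libraries (horizontal) for the 40 genes; red points were called in the off arm and circled points in the on arm. Most genes lie above 0 vertically and below 0 horizontally, with Plk1 and Cdc20 at the top and Cenpf at the far left.

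Neighbouring parts of the cell cycle machinery were mixed at day 14, when 16.9% of all tested genes were called higher and 14.9% lower. Of 26 genes of DNA replication, 24 rose and 0 fell, and the list median was 1.31, against 1.26 for the 40 mitotic genes. Cdc6, which loads the replicative helicase, changed by 2.22 ± 0.17. Ccne1, cyclin E1 of the G1 to S transition, changed by 2.91 ± 0.21, while G1 cyclins and kinases as a list had 3 of 8 higher and 1, Ccnd1, lower. Condensin, which compacts mitotic chromosomes, had 5 of 8 higher, led by Smc2 at 1.37 ± 0.14, and 1 lower, Smc4 at -0.83 ± 0.25. Smc4 had 215 to 323 CPM at day 14 off and 327 and 670 CPM at day 14 on, so its on libraries differed widely. For condensin limma voom called 6 higher and 0 lower. The inner kinetochore had 10 of 17 higher and 0 lower, with the smallest p for Cenpw at 1.31 ± 0.17, and cohesin with separase and the shugoshins had 6 of 13 higher and 0 lower, led by Sgol1, a protector of centromeric cohesion, at 1.79 ± 0.17. A list of centriole duplication genes that also held Nek2 and Cep55, which have other roles, had 4 of 10 higher and 0 lower. Neither Nek2 nor Cep55 was called, and 5 of 10 changes were above 0. Plk4, the master kinase of centriole duplication, rose by 0.94 ± 0.16.

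The regulators of these genes were less uniform. Of 23 transcription regulators of the cell cycle 11 were called higher and 0 lower (median 0.35). Mybl2, which encodes B-MYB, had 81.9 to 100 CPM at day 14 off and 44.2 and 43.2 CPM at day 14 on, a change of 1.04 ± 0.14 (edgeR adjusted p = 4.82e-04). Foxm1 had 18.2 to 23.1 CPM at day 14 off and 9.85 and 8.85 CPM at day 14 on, a change of 1.20 ± 0.35 (edgeR adjusted p = 0.0242). Both were thus higher off without overlap. Among brakes and activators of entry, 5 of 10 were higher and 2 lower. Pkmyt1, a kinase that inhibits CDK1, rose by 2.04 ± 0.24, Wee1, a kinase with the same target, fell by 1.02 ± 0.21, and Cks2, a CDK subunit, rose by 1.76 ± 0.22.

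Some inhibitors of the cycle fell. Of 10 tested CDK inhibitors and antiproliferative genes 0 were called higher and 4 lower (0 and 4 by both DESeq2 and limma voom). At an unadjusted p below 0.05 the counts were 0 and 5, against 6745 of the 15916 tested genes in either direction. Cdkn1b, p27, had 33.5 to 44.3 CPM at day 14 off and 79.7 and 62.6 CPM at day 14 on, a change of -0.80 ± 0.18 (edgeR adjusted p = 0.00689). Cdkn2d changed by -1.63 ± 0.21, Ccng2, a cyclin linked to arrest, by -1.56 ± 0.21, and Cdkn1c, p57, by -3.83 ± 0.64. Cdkn1c had 0.339, 0.220, 0.344 and 0 CPM at day 14 off and 2.49 and 4.43 CPM at day 14 on. Its off levels were near or below those of 3 counts, so the size of its change is uncertain. Cdkn1a, the p53-induced inhibitor p21, and Cdkn2c changed by -0.09 ± 0.33 and 0.45 ± 0.29 and did not pass. A list of the anaphase-promoting complex, which also held Fzr1, Ube2s and the inhibitor Fbxo5, had 5 of 17 higher and 1 lower. Among the 5 were Cdc23, with its shared counts, and Fbxo5 at 1.27 ± 0.17, the largest change of the list. Motors of interphase transport, which are not tied to mitosis, had 2 of 13 higher and 2 lower (median -0.16), near the shares of all tested genes, 16.9% and 14.9%.

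Red cell precursor markers moved with the mitotic genes at day 14. Of 24 erythroid markers 16 were called higher and 0 lower, against 16.9% and 14.9% of all tested genes, and their summed level was 4890 to 6205 CPM at day 14 off and 1741 and 2445 CPM at day 14 on. No marker was at 0 in any library. At day 5 the sums were 1259 and 2906 CPM off and 1598 and 3691 CPM on. There edgeR called 3 of the 24 markers higher and 0 lower, against 0.371% and 0.113% of all tested genes (median log2 change 1.92, 19 of 24 above 0). DESeq2 called 14 of the markers higher and 1 lower, and 472 of all genes in either direction. By limma voom 0 markers and 0 of all genes were called. The median log2 CPM of the erythroid markers was 2.73 and 4.27 in day 5 off replicates 1 and 2, whereas that of the 40 mitotic genes was 5.35 in each. In day 5 on replicates 1 and 2 it was 1.68 and 1.94 for the erythroid markers and 4.90 and 5.11 for the mitotic genes. In day 14 on replicates 1 and 2 it was 2.82 and 2.27 for the erythroid markers and 4.61 and 4.38 for the mitotic genes. The other lists at day 14 are to be read against the day 14 shares of 16.9% higher and 14.9% lower. Among them the granulocyte progenitor markers had 4 of 7 lower, with sums of 23.3 to 102 CPM off and 106 and 314 CPM on. The stem and progenitor markers had 5 of 7 lower, with sums of 401 to 451 CPM off and 661 and 1201 CPM on. The part of these cell types in the mitotic differences was not tested.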

How the data were processed

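RNA of sorted cells was made into 3′ polyA libraries with a QuantSeq kit and sequenced as single-end reads, per the labels' protocols. Alignment was to mm10, and the tools listed are HISAT2 2.0.4 with cutadapt 1.14 and bcl2fastq 2.17.1.14, Subread 2.0.0 with featureCounts, and limma 3.48.3 with edgeR 3.34.0, per the submitters' processing notes. Tool settings, the use of strand and the gene annotation: not given in the sources used here. Values as deposited are raw counts for each Ensembl gene, and 52403 of 52636 gene IDs matched GENCODE M21 for symbols and positions.

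The tests used edgeR 4.0.16 in R 4.3.3: filterByExpr over 4 groups (15916 genes), TMM scaling and robust quasi-likelihood tests with 1 fit of all 10 libraries. Benjamini-Hochberg adjustment ran over all tested genes, and called means an adjusted p of at most 0.05. SEs are the log2 change divided by the root of the F statistic. The code was tested on simulated data. Alternatives used DESeq2 1.42.0, limma 3.58.1 (voom), other scalings and filters, a replicate block, only the compared groups and each library left out. Members and lists were chosen with earlier results of these data known.

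Named in full were, by a fixed rule, the gene of highest mean CPM in each role, the 2 largest and 2 smallest day 14 changes, genes not called at day 14, and the 3 of smallest p for the difference between days. Of each other list at most 3 genes of smallest p were named, with Foxm1, Mybl2 and 3 CDK inhibitors; Smc4 and Wee1, and the further members given beside a library, day or arm, were chosen after their values were seen. Marker lists not described in the text (neutrophil, monocyte, megakaryocyte, mast cell, B cell, T and NK cell) had 1 of 14, 0 of 9, 2 of 7, 0 of 5, 0 of 5 and 1 of 8 genes higher by edgeR at day 14 off, and 4, 4, 1, 2, 0 and 3 lower. Limits of 3 counts cover counting error only, while SEs and SDs include the spread between libraries.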

Additional observations from a re-analysis of the deposited data

Results flagged for a closer look

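The test of the difference between days named 8 genes whose off-over-on change was larger at day 14 than at day 5. The differences in log2 change were 1.79 for Plk1, 1.73 for Cdc20, 1.48 for Cdk1, 1.25 for Ttk, 1.23 for Nusap1, 1.07 for Bub1b, 0.99 for Top2a and 0.90 for Spc24. In Nuf2, day 14 off replicate 2 had 24.7 CPM and stood away from the other 3 off libraries, at 20.2 to 20.8 CPM, by 0.859 of the group's range. Chance gives such a gap in about 1 in 20 groups, and 1 of 40 genes showed it.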

How the results depend on the processing

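The day 14 count of 37 higher and 0 lower among the mitotic genes was within 1.5 times under every alternative run, and with 1 library left out it was 30 to 38 higher and 0 lower. The smaller comparisons depended on the model. At day 5, no filter on low counts called 2 of the 40 higher, and over all genes the count of 77 became 992 with no filter, 472 by DESeq2, 225 with the replicate block, and 0 by limma voom or with only the compared groups. For the difference between days, the count of 8 became 21 with no filter, 20 by DESeq2 and 19 with the replicate block, and 487 over all genes became 1957, 1327 and 1521. Within the off arm, only the compared groups gave 19 higher in place of 10. Within the on arm, the count of 2 lower became 1 with RLE factors or total counts, 5 with upper-quartile factors, 8 with no filter, 11 by DESeq2, 7 with the replicate block and 0 with only the compared groups. Over all genes the on arm's 370 became 190 with total counts, 1275 with no filter, 1136 by DESeq2, 1014 with the replicate block and 0 with only the compared groups. With 1 library left out, counts over all genes were 2985 to 5738 at day 14, 0 to 304 at day 5, 106 to 965 for the difference, 601 to 3409 in the off arm and 0 to 680 in the on arm. Among the 40 they were 0 at day 5, 0 to 20 higher for the difference, 3 to 15 higher in the off arm and 0 to 3 lower in the on arm. Where 1 library of a pair was left out, the remaining one was taken to have the spread of the other groups. The cause of these changes was not tested. The labels do not pair the replicate numbers, and deviations of same-numbered libraries correlated by 0.03 and 0.298 at day 14 and by 0.203 and 0.203 at day 5. With the replicate block Cdc25c lost its day 14 call (edgeR adjusted p = 0.0596) and Cenpf gained one (0.0273). An alternative chosen after seeing the data left out Kif20a, Ccna2, Cdc25c, Kif4 and Prc1. It gave 32, 0, 8, 9 higher and 2 lower in the 5 comparisons. Without 3 rRNA-locus genes each count of the 40 was within 1.5 times. Each comparison includes at least 1 group of 2 libraries, which limits them all.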
